A study of Homo sapiens with 2 samples.

Results

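The genes described here build the anchor that fixes a sheet of epithelial cells to its basement membrane. They are the hemidesmosome genes ITGB4, ITGA6, COL17A1, DST, PLEC and CD151, the laminin-332 chain genes LAMA3 and LAMB3, and the laminin-binding integrin gene ITGA3. The list holds 9 genes and was chosen by function, with earlier results of these data known. A member was taken through every probe set of the array whose annotation gives a single gene symbol that is on the list. That gave 19 probe sets of 7 genes, out of 19065 probe sets of 11963 genes named in the same way. LAMA3 and COL17A1 were matched to no such probe set and their levels were not analysed here.

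RNA came from H6c7, a line of human pancreatic duct epithelium that is near normal in growth and was immortalised with papillomavirus genes, and from H6c7 cells that carry and express a K-ras oncogene. Each line was measured on 1 Affymetrix U133A array. The labels give no allele, vector, promoter or passage for the K-ras line, do not say whether it is a clone or a pool, and describe no line with an empty vector. With 1 array a line there is no spread between samples and no test, so every value is a description of these 2 arrays. In such bulk RNA, fewer cells with a transcript and less of it per cell cannot be told apart.

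In a hemidesmosome, the integrin of the alpha6 chain (ITGA6) and the beta4 chain (ITGB4) spans the membrane and holds laminin-332 on the outside. Inside the cell, the plakins plectin (PLEC) and BPAG1 (DST) tie that integrin to keratin filaments. Collagen XVII (COL17A1) and the tetraspanin CD151 are its other membrane parts. Laminin-332 is secreted as a trimer that includes the alpha3 and beta3 chains, and cells also bind it through the integrin of alpha3 (ITGA3) and beta1 (ITGB1), which serves in adhesion and migration outside the hemidesmosome. Inherited loss of laminin-332, collagen XVII or the alpha6 beta4 integrin causes blistering skin disease, and in carcinoma cells the alpha6 beta4 integrin is also known as a signalling receptor.

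The K-ras line had higher signals for the beta4 integrin chain, the beta3 laminin chain, the alpha3 integrin chain and plectin, and a much lower signal for BPAG1. The alpha6 chain and CD151 differed by less than 2-fold. At the gene level, with the brightest probe set standing for each gene, 4 of the 7 genes were higher in the K-ras line by 2-fold or more and 1 was lower by that much. Over all 7693 measured genes the corresponding shares were 9.97% higher and 14.4% lower. The median log2 ratio (K-ras over parental) was 1.24 over the 7 members and 0.10 over all measured genes. A gene counts as measured where its probe set reaches a floor of 46.9 intensity units, the higher of the 2 array medians, on at least 1 array. Where 1 of the 2 signals is below the floor, the floor takes its place and the ratio is a bound, given as "at least".

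Sequence just before the transcription start is shown for 3 members, LAMB3, higher in the K-ras line, ITGA6, less than 2-fold lower, and DST, lower. These are the measured members for which a promoter window was taken from the RefSeq table used here (GRCh38.p14). Windows were not taken from every chromosome of that table, so a member without one here may still have one there. A window reaches from 250 bases before to 50 bases after an annotated start. The 250 bases before the start are printed, 5′ to 3′ on the strand of the gene, for the most upstream annotated start of ITGA6 and DST and for the LAMB3 start whose window holds an AP-1 match. Capitals mark matches on either strand to the AP-1 motif TGANTCA (the element bound by FOS and JUN proteins), the GC box GGGCGG and the TATA box TATAAA. None of the marked matches overlap.

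LAMB3, chr1:209651375-209651624, minus strand: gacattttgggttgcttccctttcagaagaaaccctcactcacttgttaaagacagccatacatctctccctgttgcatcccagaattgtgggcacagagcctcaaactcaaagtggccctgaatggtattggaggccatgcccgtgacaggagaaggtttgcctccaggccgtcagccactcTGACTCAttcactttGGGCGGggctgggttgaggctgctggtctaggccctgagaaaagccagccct

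ITGA6, chr2:172427086-172427335, plus strand: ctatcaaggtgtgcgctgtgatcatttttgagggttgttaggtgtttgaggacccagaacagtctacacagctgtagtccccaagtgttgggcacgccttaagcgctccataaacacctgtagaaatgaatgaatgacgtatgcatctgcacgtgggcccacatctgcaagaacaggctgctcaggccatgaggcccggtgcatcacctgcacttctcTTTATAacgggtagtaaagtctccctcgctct

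DST, chr6:56954831-56955080, minus strand: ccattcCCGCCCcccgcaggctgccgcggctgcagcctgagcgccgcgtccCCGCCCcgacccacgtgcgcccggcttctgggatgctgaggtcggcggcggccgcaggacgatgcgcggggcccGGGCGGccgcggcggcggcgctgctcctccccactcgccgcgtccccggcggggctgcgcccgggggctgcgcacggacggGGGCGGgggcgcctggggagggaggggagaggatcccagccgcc

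The LAMB3 window had an AP-1 match that begins 67 bases before the start and a GC box 52 bases before it. The ITGA6 window had a TATA box match, on the opposite strand, 32 bases before the start, and a GC box after it, 34 bases in. The DST window had 4 GC boxes before the start, and its AP-1 match lay after it, 26 bases in. The other ITGA6 window held 3 GC boxes and no AP-1 or TATA box match. The other 2 LAMB3 windows held a GC box and no AP-1 match, and the other 2 DST windows held none of the 3 motifs. LAMA3, the chain gene without a matched probe set, had 2 AP-1 matches, 125 and 69 bases before its start. In all, 10 windows of 5 members were taken, of which 3 held an AP-1 match, 7 a GC box and 2 a TATA box match. Windows of neighbouring starts overlap, so 1 GC box of LAMB3 and 1 of ITGA6 are each counted in 2 windows. Among all 35116 windows of the table, 7.71% held an AP-1 match, 45% a GC box and 11.5% a TATA box. A match is a stretch of letters, and binding was not measured. Which annotated start gives the transcripts that a probe set detects was not analysed. The printed DST window therefore need not belong to the DST transcript whose signal was lower.

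The integrin chains of the hemidesmosome differed from each other. ITGB4, the beta4 chain, had signals of 1406 (parental) and 4778 (K-ras) in probe set 204990_s_at, its brightest, which is 3.40-fold higher. In 204989_s_at the signals were 766 and 4414, or 5.76-fold higher. In 211905_s_at they were 158 and 897, or 5.67-fold higher. All 3 thus cleared the floor on each array and were higher in the K-ras line, with log2 ratios of 1.77, 2.53 and 2.50. The standard deviation of these ratios, 0.43, was close to the 0.46 pooled over the 1671 genes for which at least 2 probe sets clear the floor on each array. That spread is between probe sets of a gene on the same arrays and says nothing about repeat cultures. A ratio of 1.77 was above those of 98.5% of measured genes. The ITGB4 probe set 214292_at lay below the floor on both arrays, at 5.8 and 9.1, and gives no ratio.

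ITGA6 encodes the alpha6 chain, the only known alpha partner of beta4. Its signals were 1619.5 in the parental and 1277.5 in the K-ras line in probe set 215177_s_at, a log2 ratio of -0.34. Probe set 201656_at gave 1523 and 1125, a log2 ratio of -0.44. Both probe sets were slightly lower in the K-ras line, by less than 2-fold, and 31.5% of measured genes had a lower ratio than -0.34. Measured on the same 2 arrays, the log2 ratio of ITGB4 exceeded that of ITGA6 by 2.11.

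ITGA3 encodes the alpha3 chain. Its single probe set had a signal of 684 in the parental and 1613 in the K-ras line, 2.36-fold higher. The beta1 chain ITGB1, its partner and the other partner of alpha6, had signals of 1881 and 585, a log2 ratio of -1.69. The chains of the alpha6 beta4 and of the alpha3 beta1 integrin thus had log2 ratios of opposite sign, while those of alpha6 beta1 were both negative. Levels of the assembled receptors were not measured.

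LAMB3 encodes the beta3 chain, which occurs in laminin-332. Its signal was 3487 in the parental and 9045 in the K-ras line, 2.59-fold higher, on 1 probe set. Its log2 ratio of 1.38 was above those of 96.2% of measured genes. CD151, the tetraspanin that binds the alpha3 and alpha6 integrins, had signals of 346 and 512, a log2 ratio of 0.57, under 2-fold.

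**Figure D1:**
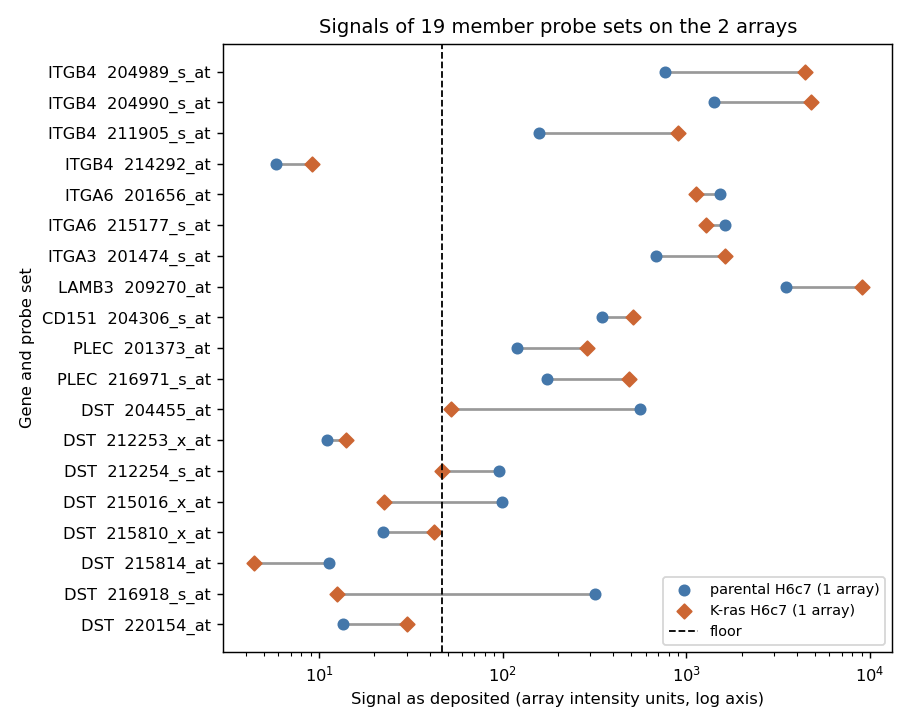
Signal as deposited (array intensity units, log axis) of the 19 member probe sets on the parental array (circles) and the K-ras array (diamonds), joined by a line for each probe set, with the floor of 46.9 dashed. The K-ras diamond lies to the right of the circle in 3 ITGB4, 2 PLEC and the ITGA3, LAMB3 and CD151 probe sets that clear the floor, and to the left in the 2 ITGA6 probe sets and the 4 measured DST probe sets. Signals of different probe sets are not on a common scale of abundance.

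The plakins went opposite ways. PLEC encodes plectin, the linker that holds the beta4 tail. Its probe set 216971_s_at had signals of 173 in the parental and 488 in the K-ras line, 2.82-fold higher. The second, 201373_at, had 119 and 286, 2.40-fold higher. Both cleared the floor on each array, and their log2 ratios of 1.49 and 1.26 differed by less than the pooled spread between probe sets of a gene.

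DST encodes BPAG1, the other plakin of the hemidesmosome, along with longer forms made in nerve and muscle. Its brightest probe set, 204455_at, is annotated to the RefSeq transcript known as the epithelial form. It had a signal of 561 in the parental and 52.3 in the K-ras line, 10.7-fold lower. The K-ras signal was barely above the floor, so this value is close to a bound. Only 0.169% of measured genes had a lower log2 ratio than its -3.42.

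Probe set 216918_s_at went from 319 to 12.5, at least 6.81-fold lower, a bound that has no order against the value of 204455_at. Probe set 215016_x_at went from 99.5 to 22.5, at least 2.12-fold lower, and names ending in _x_at mark probes that may also pick up related transcripts. Probe set 212254_s_at went from 95.4 to 46.5, a value just under the floor, at least 2.03-fold lower. All 4 measured DST probe sets were thus lower in the K-ras line, 3 of them as bounds. The remaining 4 DST probe sets were below the floor on both arrays, with signals of 4.4 to 42.3, and were not read.

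Counted by probe set, 14 of the 19 were measured, and 11 of these cleared the floor on each array. A higher signal in the K-ras line by 2-fold or more was seen in 7 of the 14 and a lower one in 4, against 10.1% and 14.7% of all 11084 measured probe sets. The 7 higher ones belong to ITGB4, PLEC, ITGA3 and LAMB3. The 4 lower ones belong to DST alone, so they share a target and count as 1 gene.

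**Figure D2:**
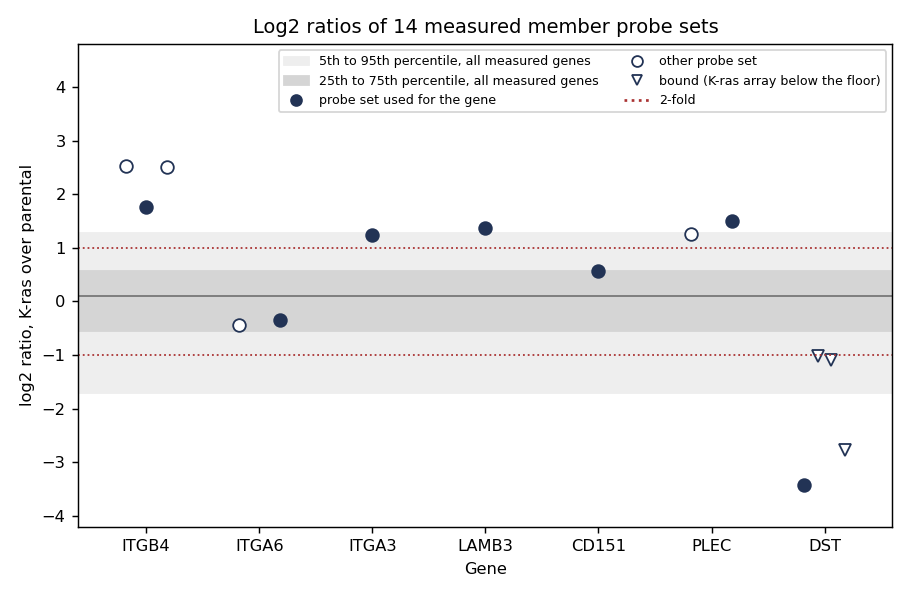
Log2 ratio (K-ras over parental) of the 14 measured member probe sets by gene, with the probe set used for the gene filled, bounds as triangles and the 2-fold lines dotted. Shaded bands give the 25th to 75th and the 5th to 95th percentile of all 7693 measured genes, with their median of 0.10 as a line. ITGB4 (1.77 to 2.53), LAMB3 (1.38) and the PLEC probe set at 1.49 lie above the outer band and the DST probe set 204455_at (-3.42) and the bound of 216918_s_at (-2.77) below it, while ITGA6 and CD151 lie in or at the edge of the inner band.

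The members differ in gene length, and on these arrays ratios varied with it. DST has the longest genomic span of the 7, at 497 kb in GRCh38.p14, and ITGA6 is next at 79.1 kb. Spans are of whole genes, which for DST takes in the longer forms. The span of the transcript that 204455_at detects was not computed and may be shorter. The shares given below for 200 kb or more therefore need not apply to it. The spans of PLEC, LAMB3, ITGB4, ITGA3 and CD151 are 61.6, 37.6, 36.4, 34.4 and 5.88 kb. The 2 members with negative log2 ratios were thus those with the longest spans. Among all measured genes, 5.11% of the 1584 with a span under 10 kb were lower by 2-fold or more and 14.1% higher. Of the 3512 genes between 10 and 50 kb, where LAMB3, ITGB4 and ITGA3 fall, 14.7% were lower and 11% higher. Of the 1271 genes between 50 and 100 kb, 20.1% were lower and 6.45% higher. Both ITGA6 and PLEC fall there, with log2 ratios of -0.34 and 1.49. The 847 genes between 100 and 200 kb had 22.6% lower and 4.84% higher. Of the 476 genes of 200 kb or more, 13.7% were lower and 7.35% higher. Its part in the values of DST and ITGA6 was not tested. The control probe sets for the ends of the ACTB transcript gave a 3′ over 5′ ratio of 1.28 on the parental and 1.10 on the K-ras array, and those of GAPDH 0.817 and 0.888.

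Partners of the anchor outside the list were followed in 9 lists holding 90 genes, of which 64 were measured. Of these 6 passed 2-fold upward (9.38%) and 9 downward (14.1%), shares close to those of all measured genes.

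Among 3 other measured plakins, which link junctions to the cytoskeleton, none was at least 2-fold higher and 2 were lower. MACF1, the closest relative of DST, had signals of 488 and 118, and its 5 measured probe sets gave log2 ratios of -2.27 to -1.25. The desmosome plakin DSP had a log2 ratio of -1.57. PPL, periplakin of the cornified envelope, had 0.82, under 2-fold. EVPL did not reach the floor on either array. The span of MACF1 is 403 kb and that of DSP 45.0 kb.

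Of 6 other measured integrin genes, 2 were lower and none higher. ITGAV, the alpha chain of vitronectin and fibronectin receptors, had signals of 265 and 51.3 (log2 ratio -2.37), and ITGB1 was given above. The fibronectin receptor chain ITGA5 had a log2 ratio of 0.80 and ITGB5, a partner of ITGAV, 0.61.

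None of the 7 other measured laminin chains reached 2-fold by the ratio or bound of the probe set used. Their median log2 ratio was 0.45, which is the bound of LAMC3. LAMA5, the alpha chain of laminin-511, had a log2 ratio of 0.66. LAMA2, LAMB2, LAMA4 and LAMC3 each had 1 array below the floor, with bounds of -0.73, 0.70, 0.53 and 0.45. Such bounds do not show that a change was under 2-fold. LAMB1 was at -0.52 in the probe set used and -1.001 in its other one.

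Among 8 measured basement membrane partners, 2 were higher and none lower. AGRN, the heparan sulphate proteoglycan agrin, had signals of 718 and 1904 (log2 ratio 1.41, with other probe sets at 1.02 and 1.85). COL7A1, whose product forms the anchoring fibrils that laminin-332 holds, had signals of 94.5 and 204 (1.11, and 1.17 in a second probe set). The collagen IV chain COL4A1 (-0.94) and the proteoglycan perlecan, HSPG2 (-0.73), were under 2-fold. NID1 and NID2, the nidogens that bridge laminin and collagen IV, did not reach the floor on either array.

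Of the 8 measured keratins, the filaments that the plakins bind, 1 was higher and 1 lower. KRT16 was at least 14.4-fold higher and KRT19 had a log2 ratio of -1.46. The basal keratins KRT5 and KRT14, which anchor at hemidesmosomes in stratified epithelium, had log2 ratios of 0.66 and 0.70. KRT15 had -0.91 and KRT8 0.88, the latter on an _x_at probe set.

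No member of the tetraspanin list was past 2-fold in either direction among 12 measured, by the probe set used for each gene. TSPAN6 had a log2 ratio of -0.96 in the probe set used and -1.67 in its other one, past 2-fold. TSPAN4 had a log2 ratio of 0.86, CD9 -0.70 and TSPAN15 -0.49, beside the 0.57 of CD151.

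In the list of enzymes that trim laminin-332 or shed collagen XVII, 2 of 7 measured genes were lower and none higher. ADAM10 had signals of 723 and 81.3 (log2 ratio -3.15), though its other 2 probe sets gave -1.01 and -0.85. ADAM9 had 730 and 114 (-2.67). The membrane metalloproteinase MMP14 had a log2 ratio of 0.78, with its other 3 probe sets between 0.75 and 1.52, and the plasminogen activator PLAU -0.62, both under 2-fold in the probe set used.

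Other laminin receptors included 1 higher gene of 4 measured, the Lutheran glycoprotein BCAM, with signals of 81.1 and 175 (log2 ratio 1.11). The syndecans SDC1, SDC4 and SDC2 had log2 ratios of 0.75 (1.12 in another probe set), -0.14 and, as a bound, 0.03.

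Focal adhesion linkers, which tie beta1 and alphaV integrins to actin, had 2 of 9 higher and 2 lower. The median log2 ratio of the 9 was 0.84, against 0.10 over all measured genes. TLN1 (log2 ratio 1.05) and ZYX (1.02) were higher. VCL (-1.34) and PTK2 (-1.02) were lower, and a second PTK2 probe set gave -0.08.

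**Figure D3:**
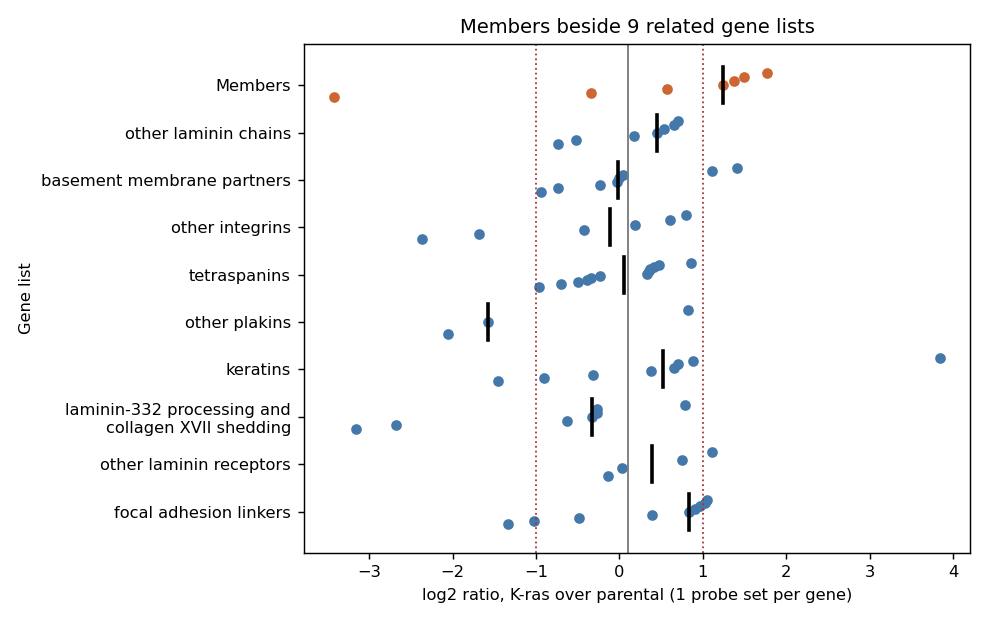
Log2 ratio (K-ras over parental, 1 probe set a gene) of the 7 members (top) and of the measured genes of 9 related lists, with each list's median as a black bar, the median of all measured genes as a grey line and the 2-fold lines dotted. Genes below the floor on 1 array are drawn at their bound. The member bar stands at 1.24, with DST far to the left, and the single point beyond 3 on the right is KRT16.

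Both arrays had signals above the floor for epithelial markers and for some mesenchymal ones. Of 8 duct markers 7 were above the floor (CFTR was below it on both arrays). Of 5 basal or squamous markers 3 had a matched probe set, the keratins KRT5, KRT14 and KRT15, and KRT17 and TP63 had none. All 3 were above the floor, KRT15 barely so on the K-ras array, at 51.3. Of the 7 duct markers, 3 were lower by 2-fold or more in the K-ras line, KRT19 (log2 ratio -1.46), EPCAM (-1.06) and SOX9 (-1.03, with another probe set at 0.04), and the median was -0.32. None of 3 leukocyte and 3 endocrine markers reached the floor on either array. Of 2 acinar markers with a probe set 1, CELA3A, and of 3 endothelial markers 1, PECAM1, reached it on the K-ras array alone, with bounds of 0.26 and 0.78 in log2 ratio. Of 7 mesenchymal markers 4 were measured, and FN1 was lower (log2 ratio -1.38, on an _x_at probe set) and no other passed 2-fold. FN1 had signals of 1989 (parental) and 764 (K-ras) and VIM 590 and 772, well above the floor. CDH2, COL3A1 and PDGFRB did not reach it on either array. The median signal over probe sets other than controls was 43.9 (parental) and 46.9 (K-ras). Over all genes measured, 767 passed 2-fold upward and 1109 downward. With the arrays scaled on 100 maintenance probe sets instead, that balance turned to 1093 and 844 and the median log2 ratio, over genes that clear the floor on each array, went from 0.10 to 0.26, while each of the 14 member ratios kept its sign.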

How the data were processed

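Total RNA of 1 culture of each line was made into labelled cRNA by the array maker's procedure, per the labels. The authors deposited linear intensities, 1 for each of 22283 probe sets (68 of them controls) on each array. How they were computed is not stated in the labels. Leaving out 2% of values at each end, the mean was 150.1 on each array, so the values were taken as scaled already, and rescaling to it changed little. Probe sets were named through the array annotation, of which 1043 with several symbols were left out. No replicate, detection call or probe-level file was used. Precision is limited by the number of arrays. Levels of the introduced gene were not analysed here.

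Ratios are K-ras over parental, with the floor, the brightest probe set per gene and the 2-fold threshold given in the report. The members and lists were chosen with earlier results of these data known. All members are named, with up to 4 genes of largest ratio per related list and ITGB1, KRT5 and KRT14. A few further genes are named, chosen after their values were seen. There were 12 alternative settings. The computation of the calls was checked on simulated arrays, which gives no error rate for the real ones. Python 3.11.15, numpy 2.4.6, pandas 2.3.3, statsmodels 0.14.6 and matplotlib 3.10.9 were used.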

Additional observations from a re-analysis of the deposited data

How the results depend on the processing

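No paired analysis was possible because each line has 1 array. Under 12 alternative settings the counts of member genes past 2-fold and their median kept their values within 1.5 times or within the spread between probe sets, with these exceptions. Leaving out _x_at and _s_at probe sets kept 4 member genes and no measured ITGB4, ITGA3 or CD151 probe set. There 2 genes and 2 probe sets were higher, 1 probe set was lower and the median log2 ratio was 0.41. Of all genes measured in that setting, 9.88% were higher and 15.5% lower. At a 3-fold threshold 1 gene and 3 probe sets were higher and 2 probe sets lower. Of all measured genes, 2.40% were higher and 6.24% lower at that threshold. The number of lower probe sets was 2 with scaling on maintenance probe sets and 2 with the floor at the 70th percentile. By gene, 11.1% and 12.7% of all measured genes were lower in these settings. All 14 measured probe sets kept their sign in each setting that gave them a ratio. The values that moved most were those of DST, whose K-ras signals lie near or under the floor: 204455_at ranged from -3.52 to -2.20 and 216918_s_at from -4.68 to -1.39.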
